A study of Rattus norvegicus with 12 samples.

Results

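The data described here are the 4 control samples, of 12 samples in the series: prefrontal cortex of female Sprague-Dawley rats taken on postnatal day 15. They were chosen by their labels alone, as the samples whose dams received saline and which received saline themselves. The study asked how betamethasone before birth and ketamine after it change this tissue in a rat model of infantile spasms, and used 3 groups of 4 animals. In the control group the dams had 2 saline injections on gestational day 15 and the pups had saline on postnatal day 14. In the betamethasone group each of the 2 prenatal injections was betamethasone at 0.4 mg/kg, and in the betamethasone with ketamine group the pups also received ketamine at 35 mg/kg on postnatal day 14. The labels name spasms on postnatal day 14 without saying whether control pups had them, and 1 label field gives another age than postnatal day 15. RNA was read on rat 2-colour oligonucleotide arrays with 60-base probes, 2 animals per array, odd replicates in Cy3 and even ones in Cy5.

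Each sample was read in its own dye, and its genes were ranked by background-subtracted signal. A percentile of 90 means that the gene's probe was brighter than about 90 in 100 ranked genes of that sample. Values below are means ± SD over the 4 control samples, or the values of replicates 1, 2, 3 and 4 in that order. In all, 26205 genes were ranked, and 16212 of them, or 61.9%, were well above background in all 4 samples by the scanner software's own flag. Only 25643 genes had a usable spot in all 4 samples. Here and in the list counts below, a gene lacking one in any sample is not counted as detected in all 4. The counts per sample were 17486, 17549, 18538 and 17506, no spot was saturated, and 6931 genes were well above background in no sample. Ranks of 2 animals on 1 array correlated with Spearman rho of 0.992 and 0.991 across genes, and ranks from different arrays with 0.953 to 0.961. Among detected genes the median range of the percentile over the 4 samples was 3.76 points, and 5.69% of them ranged over more than 10 points. The 2 control arrays lay on 1 slide and all other arrays on another, so that group and slide cannot be told apart. The deposited value table pairs the arrays with the control replicate numbers the other way round, which changes which animal a value belongs to and no value of the group.

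At this age the rat cortex is in the weeks of rapid synapse formation. NMDA receptors are passing from GluN2B-rich to GluN2A-rich forms and GABA is becoming inhibitory as the chloride exporter KCC2 takes over from the importer NKCC1. Neurons are no longer born in the cortex itself, while astrocytes mature, precursors of oligodendrocytes divide and the first myelin is laid down.

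A signal rank belongs to a probe as well as to a gene, and the letters of a few probes are shown, some of them from receptor subunits ranked below. Whether these letters have a part in the ranks was not tested. In 3711 genes with more than 1 probe, the brightest and dimmest probes lay a median of 16.7 percentile points apart. Positions are on the rn4 build, sequences run 5′ to 3′, and each is a 30-base stretch of the probe taken from the array files. The first 3 show, in capitals, the repeat in the bright probe of Glra2, Tmem47 and Ahsg, and the next 2 come from the other probe of Tmem47 and of Ahsg.
Glra2, bright probe: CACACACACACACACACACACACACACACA
Tmem47, bright probe: aACACACACACACACACACACACACACACa
Ahsg, bright probe: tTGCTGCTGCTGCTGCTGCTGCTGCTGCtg
Tmem47, dim probe: gtcttttttgtgtaagctgattagagcaat
Ahsg, dim probe: caggagaagttcttcactcacctaaggtgg

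The Glra2 probe, at chrX:49977287-49977346 on the plus strand, stood at percentiles 98.8, 98.8, 98.8 and 99.04. The Tmem47 probe with the repeat, at chrX:67545686-67545745 on the plus strand, stood at 97.6, 97.5, 97.1 and 97.8. The Tmem47 probe without it, at chrX:67548958-67549017, stood at 8.62, 17.2, 11.6 and 17.7 and was well above background in no sample. For Ahsg, which encodes the liver protein fetuin-A, the probe with the repeat, at chr11:80327198-80327257 on the minus strand, stood at 85.1, 84.3, 86.9 and 88.6. The other Ahsg probe, at chr11:80331051-80331110, stood at 30.9, 29.6, 20.5 and 21.7, also well above background in no sample. On the whole array, 14 probes held a CA or AC repeat over at least 18 bases. All 14 were well above background in the 4 samples, their median percentile was 97.1, and 13 of them lay at 90 or above, against 9.40% of all 30366 probes. Of the 105 probes with any repeat of 2 to 4 bases over at least 18 bases, 41 lay at 90 or above. Among the members of the lists used here, 3 had such a repeat in their brightest probe: Glra2, Ahsg and Cx3cr1.

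GC content and near matches are shown with 4 more stretches. In Grin2d and Grin2b, subunits of the NMDA receptor, the capitals mark G and C in the most GC-rich 30 bases of the probe. In the pair from Eif4g2, a translation initiation factor, they mark the bases at which 2 overlapping probes differ.
Grin2d: tCCCGCCGCCCGCGCCCaCCtCGCGttCGC
Grin2b: tCCCCaCttttGGGGatGaCCaGtGCttGC
Eif4g2, dim probe: aagCccaagaatggttaGcTgaactttttA
Eif4g2, brighter probe: aagAccaagaatggttaAcCgaactttttC

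The Grin2d probe, at chr1:96309508-96309567 on the minus strand, had 78.3% GC over its 60 bases. The stretch shown has 25 G or C of 30 bases in Grin2d and 17 of 30 in Grin2b, whose probe lies at chr4:172722609-172722668 on the minus strand. Of the 90 probes above 75% GC, 25 lay at percentile 90 or above, or 27.8%, against 9.40% of all probes. Across all probes the correlation of GC content with percentile was weak, with Spearman rho of 0.0598, and probes share arrays and labelling. The 2 Eif4g2 probes, at chr1:168833100-168833159 and chr1:168833093-168833152, overlap over 53 bases and differ at 4 of them. The first stood at percentiles 2.89, 5.58, 3.12 and 0.907 and the second at 81.2, 76.3, 80.1 and 80.9, while the brightest Eif4g2 probe stood at 98.9, 98.9, 98.96 and 98.7. The other genes with probes farthest apart were Bub3, Il2rg and Id2, whose brightest probes averaged 86.6, 92.3 and 88.9 and whose dimmest averaged 1.37, 7.97 and 5.07.

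Place along the gene went with signal too. In 2859 genes with probes at different positions of 1 chromosome and strand, the probe nearest the 3′ end was the brighter one in 2195, or 76.8%. That share was 61.4% where the probes lay up to 500 bases apart, 77.8% from 500 to 2000 bases, 83.8% from 2000 to 10000 bases and 78.5% from 10000 to 200000 bases. No 2 members of a subunit family or marker list had probes that shared more than 14 bases in a row. The longest runs were between Camk2b and Camk2g and between Tuba1b and Tuba1c. Larger gene classes, such as ribosomal proteins and olfactory receptors, were not compared in this way. The orders below are therefore orders of probe signals, and the part of the probe in each was not tested.

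**Figure D1:**
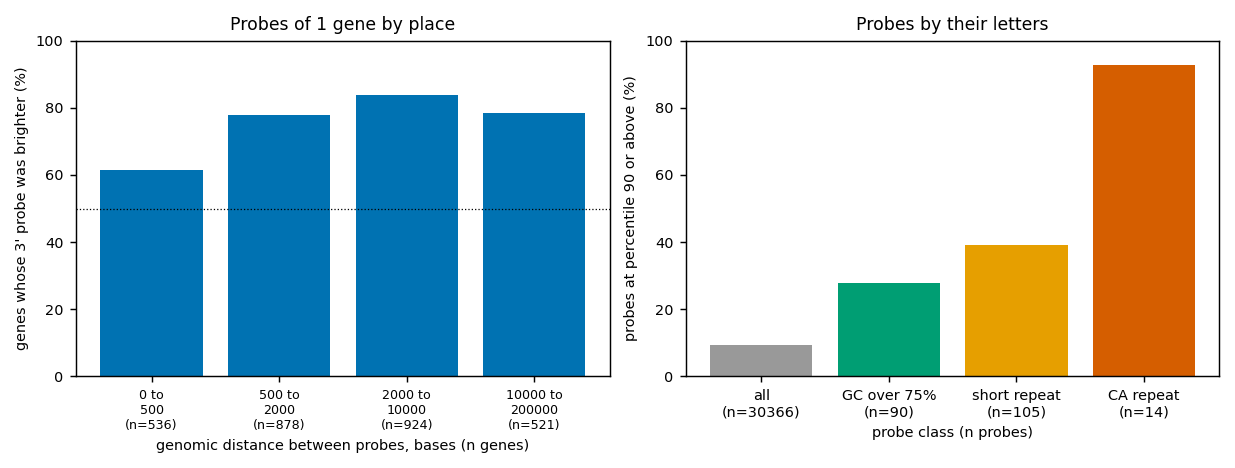
Left, the share of genes (y, percent) in which the probe nearest the 3′ end was the brighter of the outermost pair, by genomic distance between them (x, bases), with the dotted line at 50%. Right, the share of probes (y, percent) at signal percentile 90 or above by probe class (x). The share is 9.40% over all probes and 92.9% for the 14 probes with a CA repeat.

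The brightest named genes of the control cortex coded for ubiquitin, tubulins, actin, haemoglobin, ribosomal proteins and iron storage. Ubb, a polyubiquitin gene, ranked 5, 22, 11 and 14 among the 26205 genes, counted from the brightest. Tuba1a, an alpha tubulin of growing neurons, ranked 50, 2, 1 and 2, so that it led 1 sample and was among the first 2 in 3 of 4. Other members of the first 20 were Hba-a1, Ppia, Tuba1b, Actg1, Hspa8, Rpl41, Rplp0, Cst3, Basp1, Gnas, Cck, Cox6a1, Tubb2a, Fth1, Mapk3, Eno1 and Ftl1. Among them, Basp1 encodes a growth-cone protein and ranked 18, 37, 23 and 28. Cck encodes the neuropeptide cholecystokinin and ranked 34, 35, 40 and 48, Cst3 the secreted protease inhibitor cystatin C, and Fth1 and Ftl1 the ferritin chains. Mapk3, the kinase ERK1, ranked 28, 61, 64 and 17. For Hba-a1 and Gnas 1 sample had no usable spot. The 100 brightest genes carried 9.87%, 15.5%, 14.96% and 19.5% of the summed signal of the 4 samples.

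Whole classes of genes stood at the top and the bottom of the order. Counts of detected members, here and in the lists that follow, stand beside 61.9% of all ranked genes detected in all 4 samples. Among genes with a symbol that share was 66.4%. The 93 genes with symbols of cytosolic ribosomal proteins, among them related genes such as Rps12l4 and Rpl27l2, had a median percentile of 98.2 ± 0.111. Of these, 85 were well above background in all 4 samples. Rpl34, Rps27, Rps6 and Rps27l lacked a usable spot in 1 sample and were well above background in the rest. Mitochondrial energy genes, also picked by symbol, lay almost as high. Medians were 98.2 ± 0.176 for 18 genes with symbols of ATP synthase, 96.9 ± 0.402 for 16 of complex IV and 96.1 ± 0.274 for 35 of complex I. Such symbols include related genes, such as Atp5if1 and Cox7a2l, that are not counted here as proven subunits. Proteasome subunits had a median of 90.1 ± 1.2 and mitochondrial ribosomal proteins one of 82.2 ± 0.928. Genes that cortex is not known to use lay low: the 1105 olfactory receptor genes had a median of 12.3 ± 0.667 with 89 detected in all 4 samples, 158 vomeronasal receptor genes one of 13.4 ± 1.21, and 48 keratins one of 27.7 ± 0.524.

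**Figure D2:**
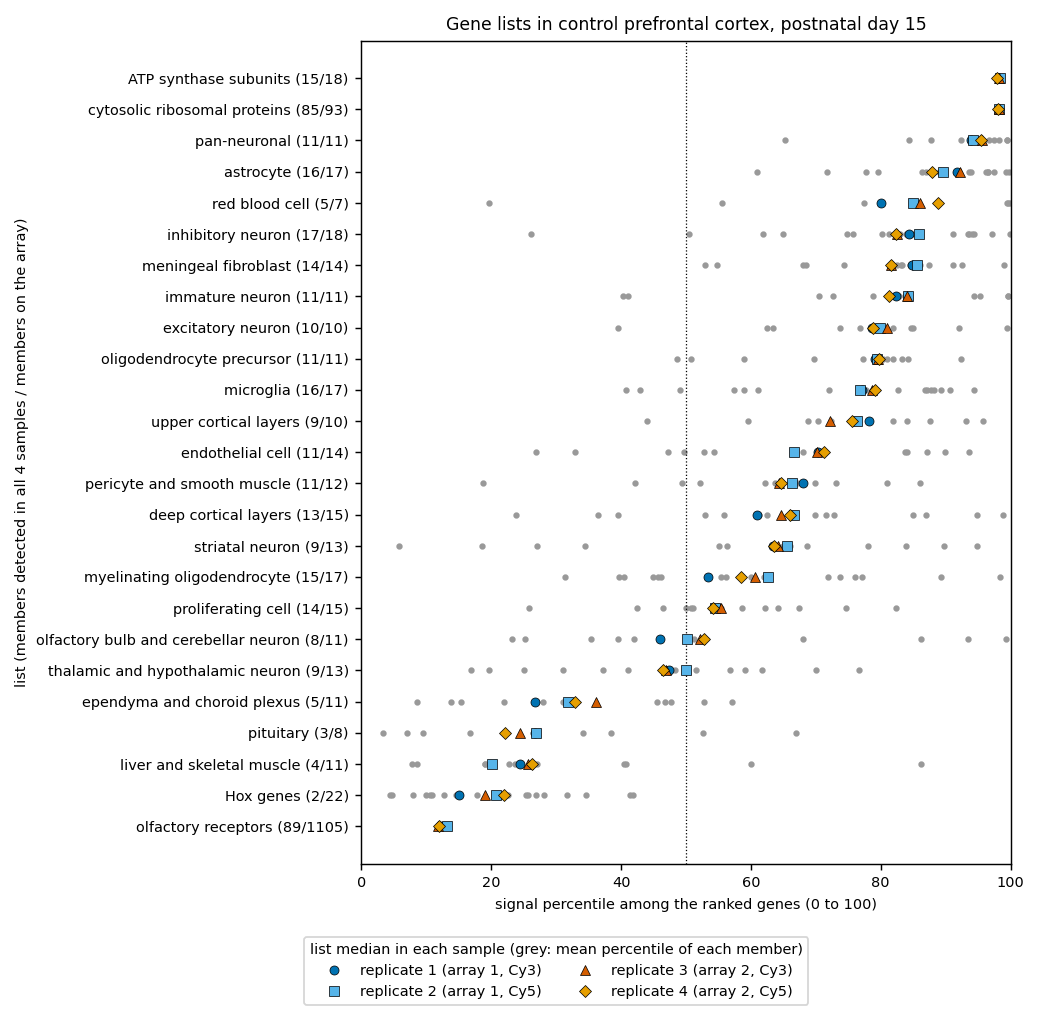
Signal percentile (x, 0 to 100) of gene lists (y, with members detected in all 4 samples of members on the array). Coloured symbols are the list median in each of the 4 control samples, grey points the mean percentile of each member of the marker lists, and the dotted line the middle of the ranking. Medians run from 98.2 for ATP synthase subunits to 12.3 for olfactory receptors, and pan-neuronal and astrocyte markers lead the cell-type lists.

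Neuronal markers were the brightest cell-type list. All 11 pan-neuronal markers on the array were detected in the 4 samples, with list medians of 93.8, 94.2, 95.5 and 95.5. Nrgn, the calmodulin-binding neurogranin of forebrain neurons, averaged 99.4 ± 0.27, and Stmn2, a microtubule regulator of growing axons, averaged 99.4 ± 0.424 and changed places with it between samples. Snap25 of the vesicle fusion machinery averaged 98.2 ± 0.0885. The dimmest member was Syt1, the calcium sensor of fast release, at 65.3 ± 3.94. Its spots in replicates 1 and 2 lay in a patch of departing spots, described further on.

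Excitatory neuron markers had a list median of 79.6 ± 1.09, with 10 of 10 detected. After Nrgn, the transcription factors Neurod6 and Neurod2 stood at 92.02 ± 0.217 and 84.98 ± 1.74. Camk2a and the vesicular glutamate transporter Slc17a7 stood at 62.5 ± 1.42 and 63.4 ± 7.89, and Tbr1, a factor of deep-layer neurons, was dimmest at 39.6 ± 4.35. Inhibitory neuron markers had a median of 83.8 ± 1.67, with 17 of 18 detected. Cck stood first at 99.85 ± 0.0242, a gene that excitatory neurons of the cortex also use. Somatostatin, Sst, stood at 96.8, 97.2, 97.1 and 97.6, a spread of under 1 point. Parvalbumin, Pvalb, which marks fast-spiking interneurons, averaged 84.8 ± 1.59, below Npy at 93.6 ± 1.24 and Calb2 at 93.4 ± 0.95 and above Vip at 82.9 ± 2.89 in all 4 samples. Adarb2, an interneuron marker, was well above background in no sample, at 26.1 ± 1.7.

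The layer lists overlapped. Upper-layer markers had a median of 75.5 ± 2.53, with Mef2c, Lmo4 and Cux2 brightest at 95.8 ± 1.51, 93.2 ± 2.06 and 87.6 ± 1.03 and Rorb dimmest at 44.04 ± 1.68. Deep-layer markers had a median of 64.6 ± 2.57. Crym, a thyroid hormone binding protein, stood at 97.5, 99.4, 99.4 and 98.95, and Foxp1 and Fezf2 averaged 94.8 and 87.01, the latter from the 2 samples with usable spots. The deep-layer factor Foxp2 was well above background in 1 sample, at 23.7 ± 5.54.

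The immature neuron list had a median of 82.9 ± 1.44, led by the growth-cone protein Gap43 at 99.55 ± 0.104, Tubb2b at 99.54 ± 0.215 and Stmn1 at 95.3 ± 0.551. Doublecortin, Dcx, which marks migrating young neurons, averaged 82.8 ± 1.61. Sox11 was the dimmest at 40.3 ± 2.2. The proliferation list had a median of 54.7 ± 0.544, near the middle of the ranking, with 14 of 15 detected. Pcna, the replication clamp, led at 82.4 ± 2.07, Rrm2 and Cdk1 followed at 74.7 ± 1.98 and 67.4 ± 3.26, Mki67 averaged 58.7 ± 1.68, and Aurkb was well above background in no sample.

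Astrocyte markers came next to neuronal ones among the cell types. Their list medians were 91.8, 89.5, 92.3 and 87.9, and 16 of 17 were detected in all 4 samples, Slc1a2 having 1 sample with no usable spot. Apoe, the lipid carrier, averaged 99.82 ± 0.104, the glycolytic enzyme Aldoc 99.3 ± 0.444 and the glutamate transporter Slc1a3 97.5 ± 0.529. Aqp4, the water channel of astrocyte endfeet, averaged 96.5 ± 0.568 by its brightest probe and 74.8 and 70.5 by the others. The dimmest was Gfap, the filament protein of mature and reactive astrocytes, at 60.7, 57.1, 61.6 and 64.2, with 34.4 by its other probe.

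Of the oligodendrocyte lists, that of precursors had the higher median in each sample, although members of both ranged widely. Precursor markers had list medians of 79.1, 79.5, 79.6 and 79.8, a spread of under 1 point, with Olig1, Ptprz1 and Pdgfra brightest at 92.3 ± 0.838, 84.2 ± 2.57 and 83.2 ± 1.42 and Lhfpl3 dimmest at 48.6 ± 1.18. The median of replicate 2 is the value of Gpr17, whose spots on array 1 lay in a patch of departing spots, described further on. Myelinating markers had medians of 53.4, 62.7, 60.6 and 58.4, a wider spread. Their members Cldn11, at 53.4, 52.1, 69.9 and 73.0, and Myrf had their spots on array 2 in such a patch. The part of these spots in the spread was not tested. Mbp, myelin basic protein, stood at 96.98, 99.3, 99.3 and 98.1 and Mag, a myelin adhesion protein, at 87.7, 91.2, 90.7 and 87.4. Late markers lay lower, with Mog at 56.2 ± 5.77, Opalin at 40.5 ± 7.96 and Mal, detected in 1 sample, at 31.3 ± 4.2. The other probe of Mbp stood at 58.3 and that of Mag at 57.9.

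Microglial markers had a median of 77.9 ± 1.1, and 16 of 17 were detected. The complement gene C1qb and the fractalkine receptor Cx3cr1 stood at 90.7 ± 0.429 and 89.3 ± 1.87, the latter with a CA repeat of 22 bases in its probe. P2ry12, a receptor of resting microglia, averaged 77.8 ± 1.26, Trem2 76.7 ± 0.61 and Tmem119 49.1 ± 2.03. The lymphoid and myeloid marker Ptprc was at 42.9 ± 3.94. Siglech was split between arrays, as given below with the other such genes.

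Vessel, meningeal and blood markers were read beside the 66.4% of genes with a symbol that were detected in all 4 samples. Endothelial markers had a median of 69.6 ± 2.01, with 11 of 14 detected, led by the thyroid hormone transporter Slco1c1 at 93.6 ± 0.248, the glucose transporter Slc2a1 at 89.9 ± 0.582 and the VEGF receptor Kdr at 87.2 ± 1.9. Cldn5, a tight-junction protein, averaged 83.8 ± 4.02 and Esm1 was dimmest. Pericyte and smooth muscle markers had a median of 65.8 ± 1.69, led by Vtn, Cspg4 and Rgs5 at 86.03 ± 1.74, 80.97 ± 1.53 and 73.1 ± 2.64, and Cnn1 was well above background in no sample. Cspg4 is also a member of the oligodendrocyte precursor list. All 14 markers of meningeal fibroblasts were detected, with list medians of 84.9, 85.6, 81.6 and 81.5. Ptgds, a prostaglandin synthase that oligodendrocytes also make, stood at 99.81, 99.5, 97.8 and 99.01, Igf2 at 94.2, 92.1, 91.9 and 91.8 and the collagen Col1a2 at 91.7, 90.4, 90.2 and 92.1. Lum was their dimmest member at 52.96 ± 3.73. Haemoglobin was among the brightest signals: Hba-a1 averaged 99.94 ± 0.0561 in 3 samples, and Hbb-b1 and Hbb stood at 99.5, 99.57, 99.4 and 99.68 and at 99.1, 99.55, 99.56 and 99.61. Of the other red cell genes, Alas2, the first enzyme of haem synthesis in these cells, averaged 77.4 ± 1.63, and Epb42 was well above background in no sample. In bulk tissue a count of cells and the RNA per cell cannot be told apart.

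Markers of neighbouring regions and of other tissues were read the same way. The ependyma and choroid plexus list had a median of 31.9 ± 3.9, with 5 of 11 detected. Transthyretin, Ttr, which choroid plexus makes in very large amounts, stood at 47.7, 60.6, 55.1 and 65.1, Rarres2 and Kcne2 at 52.8 and 47.7, and Sostdc1, Otx2, Clic6 and Kl were well above background in no sample. The striatal list had a median of 64.2 ± 0.98, close to that of the deep-layer list and above that of the myelinating list, and its leading members Foxp1, Tac1 and Pde10a, at 94.8, 89.8 and 83.8, are also known in cortex. The dopamine D1 receptor Drd1 was at 27.1 ± 2.53, with 1 sample above background, and Gpr6 and Isl1 were well above background in none. Thalamic and hypothalamic markers had a median of 47.7 ± 1.6, led by Slc17a6 at 76.6 ± 2.69, Oxt, the oxytocin gene, at 70.03 ± 1.77 and Prkcd at 61.7 ± 2.27. Gbx2 and Trh were not detected in any sample. The olfactory bulb and cerebellar list had a median of 50.3 ± 3.02. Tbx21, a factor of olfactory bulb projection neurons and T cells, stood at 99.1, 99.2, 99.3 and 99.59, Calb2 at 93.4 ± 0.95 and Th, tyrosine hydroxylase, at 86.2 ± 1.27, while the cerebellar gene Gabra6 averaged 35.4 ± 2.59 and Barhl1 and Doc2g were not detected in any sample.

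Pituitary genes had a median of 25.1 ± 2.26, with Pomc, Lhb and Pou1f1 at 67.03, 52.6 and 38.5. Cga, Gh1, Tshb and Prl were well above background in no sample, and Prl was dimmest at 3.27 ± 1.58. Liver and skeletal muscle genes had a median of 24.1 ± 2.8, with 4 of 11 detected. Beside the repeat-bearing Ahsg probe, Alb and the myosin Myh1 averaged 60.1 ± 3.71 and 40.7 ± 2.84. Myh4, Apoa2, Tnnt3, Apoa1, Ckm, Fgb and Cyp2e1 were well above background in no sample. Hox genes, which pattern the hindbrain and spinal cord and are not known as cortical genes, had a median of 19.2 ± 3.0, and 2 of 22 were detected in all 4 samples, Hoxd4 at 41.8 ± 1.21 and Hoxc5 at 34.6 ± 1.13. In none of the samples were Hoxb4, Hoxc6, Hoxd10, Hoxd1, Hoxc4, Hoxd3, Hoxb2, Hoxb9, Hoxb1, Hoxa3, Hoxd9, Hoxb3 and Hoxa9 well above background. The Y-linked gene Sry was well above background in all 4 samples, at 43.03, 47.6, 39.2 and 35.6, in animals labelled female. It was the only gene of that list on the array under a matched name, and its probe has no position in the array's annotation.

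Subunit and isoform families were then read for the order of their members. Of their 320 genes, 262, or 81.9%, were detected in all 4 samples, beside 61.9% of all ranked genes, and 29 in none. The families were chosen as genes known in brain, so the share says nothing particular about them. Each family was read from its brightest member down, and a pair is said to keep its order where the same gene was brighter in all 4 samples.

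Among NMDA receptor subunits the brightest probe was that of Grin2d, GluN2D, at 97.8, 96.2, 98.4 and 97.7. Grin2c, GluN2C, followed at 87.2, 87.05, 83.9 and 85.96. Grin3a and Grin2a, GluN2A, averaged 75.6 ± 1.52 and 74.1 ± 1.47 and exchanged places in 1 sample. The obligatory subunit Grin1 averaged 52.9 ± 9.46, with 49.97, 42.2, 54.8 and 64.8 in the 4 samples, and Grin2b, GluN2B, stood at 47.9, 47.3, 49.6 and 52.2. Grin1 and Grin2b exchanged places in 1 sample, and Grin2a was brighter than Grin2b in all 4. Grin3b was dimmest at 28.3 ± 0.696, above background in 1 sample. Grin2d is the subunit with the GC-rich probe shown above, and it has no other probe on the array.

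AMPA receptor subunits kept 1 order in all 4 samples: Gria3 at 93.1 ± 0.75, Gria2, which makes the channel tight to calcium, at 87.7 ± 1.1, Gria4 at 85.6 ± 1.28 and Gria1 at 60.9 ± 3.26. Gria1 stood at 62.2, 56.1, 63.4 and 61.8, far from the other 3. The second probes of Gria3, Gria2 and Gria4 stood at 81.4, 49.6 and 63.6. Of the auxiliary proteins, stargazin, Cacng2, averaged 93.01 ± 0.879, Cnih2 87.2 ± 7.05 and Cacng3 84.6 ± 3.01, with Shisa7 at 82.8 ± 1.43, Gsg1l at 73.2, Cacng8 at 57.2, Cacng4 at 46.9, Cacng7 at 44.7, Shisa6 at 33.4 and Cacng5 at 31.2. Kainate receptor genes were led by Grik5 at 96.4, 96.7, 96.8 and 97.05 and by the auxiliary gene Neto1 at 86.2 ± 0.971. Grik1, Grik2 and Grik4 averaged 68.4, 63.2 and 46.6 in the same order in every sample, and Grik3 was detected in none. Metabotropic receptors began with Grm4 at 88.6 ± 1.06 and Grm2 at 86.6 ± 0.475, both presynaptic inhibitory receptors, with Grm5 at 75.99 ± 3.02 and Grm3 at 70.6. Grm8, Grm7 and Grm6 averaged 64.5, 52.2 and 43.4.

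Of the GABA-A alpha subunits described, each kept its place in all 4 samples. Gabra5, known from receptors outside synapses, stood at 71.9, 70.1, 71.1 and 75.96, highest in replicate 4. Gabra4, Gabra2, Gabra3 and Gabra6 followed at 68.5 ± 1.51, 62.95 ± 1.08, 53.98 ± 0.669 and 35.4 ± 2.59. Gabra2 and Gabra3 are known as subunits of younger cortex. Of the beta subunits, Gabrb1 stood at 88.2 ± 0.732 and Gabrb2 at 46.5 ± 1.12. Of the rest, Gabrq, the theta subunit, and Gabrd, the delta subunit of extrasynaptic receptors, averaged 90.7 ± 1.18 and 89.2 ± 1.47 and crossed in 1 sample. Gabrg1, Gabrr2 and Gabrg3 averaged 63.97, 36.7 and 35.4, while Gabrr3, Gabrr1, Gabre and Gabrp were detected in no sample. Both GABA-B subunits were bright, Gabbr2 at 97.2 ± 0.524 and Gabbr1 at 93.1 ± 0.805. Of the glycine receptor genes, Glra2 led with the CA-repeat probe shown above, its only probe on the array, and Glra1, Glrb and Glra3 averaged 59.8, 55.9 and 14.2.

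**Figure D3:**
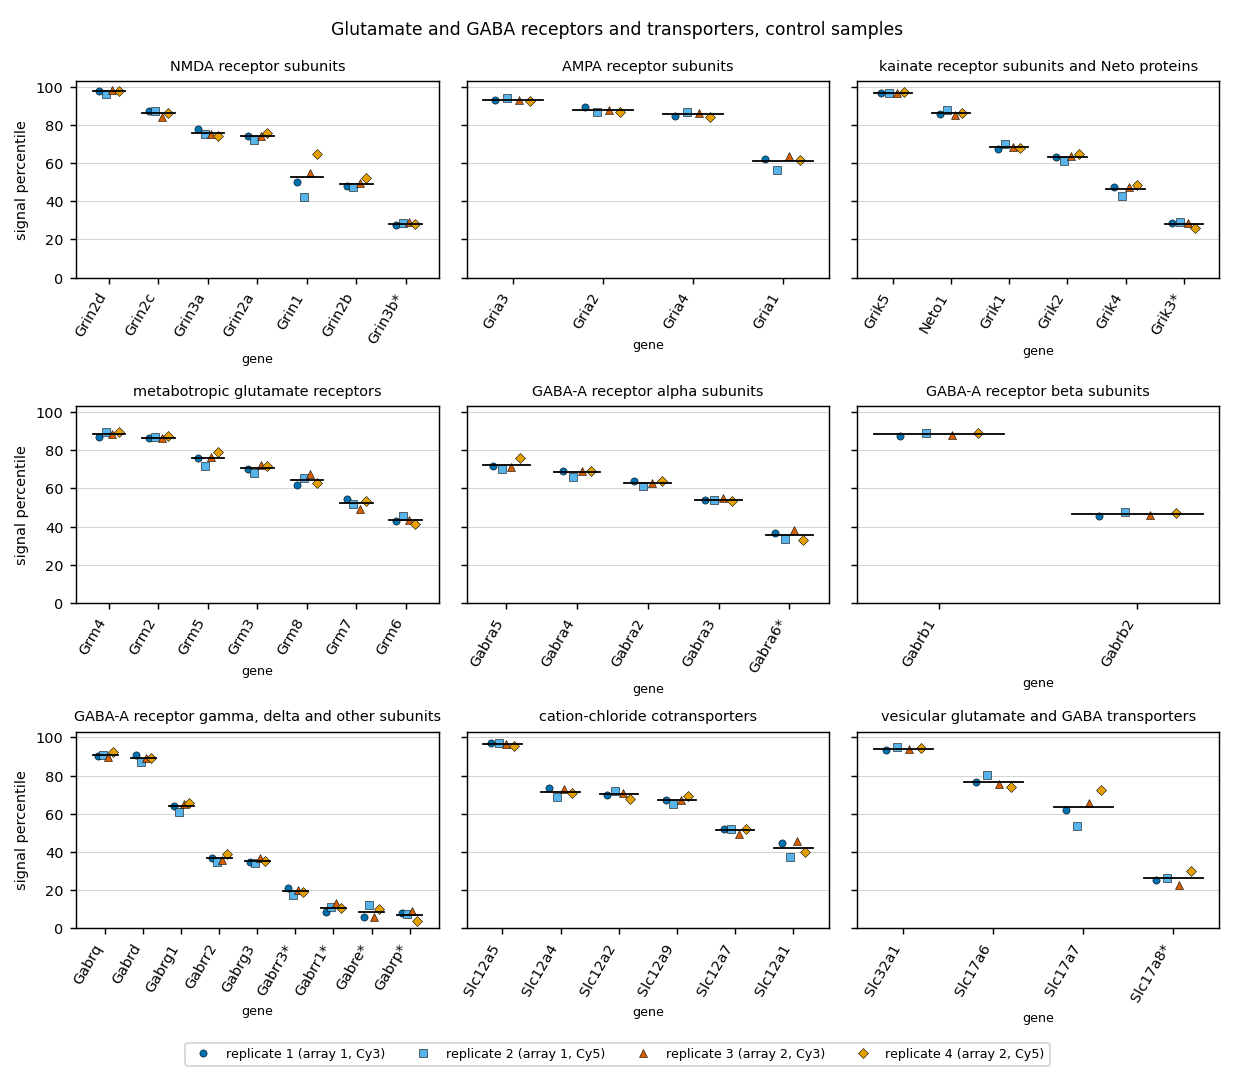
Signal percentile (y, 0 to 100) of members of 9 families of glutamate and GABA receptors and transporters (x). Each symbol is 1 control sample and each bar the mean of the 4, and an asterisk marks a gene not well above background in every sample with a value. The genes drawn are those the text reports. The 4 samples of most lie within a few points, and Grin1 and Slc17a7 are spread widest among the detected ones.

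The chloride transporters were led by Slc12a5, KCC2, at 96.95, 96.9, 96.4 and 95.6, with Slc12a2, NKCC1, at 69.8, 72.2, 70.9 and 67.7. Slc12a5 was brighter in all 4 samples, and it had a spot in a patch of departing spots, described further on. By its second probe Slc12a5 stood at 45.1 and Slc12a2 at 52.8, so that the order of KCC2 and NKCC1 differs between probe choices. Slc12a4, Slc12a9, Slc12a7 and Slc12a1 averaged 71.5, 67.3, 51.4 and 42.01. Of the vesicular transporters, the GABA transporter Slc32a1 stood at 93.1, 95.00, 93.9 and 94.4, Slc17a6, VGLUT2, at 76.5, 80.4, 75.4 and 74.1 and Slc17a7, VGLUT1, at 61.8, 53.6, 65.6 and 72.6. Slc17a7 had its spots on array 1 in such a patch, and Slc17a8 was detected in no sample. Glial Slc1a3, GLAST, was brighter than Slc1a2, GLT-1, at 97.5 ± 0.529 against 86.3 ± 0.495 in 3 samples, and neuronal Slc1a1 averaged 78.7 ± 2.21, above Slc1a6 and Slc1a7 at 60.4 and 38.5. The glycine transporter Slc6a9, and Slc6a13, Slc6a11 and Slc6a5 averaged 62.6, 60.98, 44.6 and 38.7. The enzymes that make GABA were Gad1 at 91.1 ± 0.739 and Gad2 at 75.7 ± 1.99 in that order in all 4 samples, although the second probe of Gad1 stood at 43.3.

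The alpha subunits of voltage-gated sodium channels had 1 clear leader. Scn2a, Nav1.2, the early channel of axon initial segments, stood at 95.4, 95.8, 94.3 and 94.8, ahead of Scn1a, Nav1.1, at 78.7, 80.3, 77.7 and 72.5. Scn3a, the channel of the fetal brain, averaged 66.4 ± 6.12 and Scn8a, Nav1.6, 57.9 ± 1.72, and the order of these 4 held in all samples. Scn9a and Scn11a were above background in 2 and 1 samples, and Scn4a and Scn10a in none. Among beta subunits Scn3b stood at 97.3, 98.4, 97.5 and 97.03, with Scn4b and Scn2b at 44.1 and 37.9. The brightest calcium channel pore genes were the T-type Cacna1i at 94.01 ± 1.08, the N-type Cacna1b at 85.4 ± 1.87 and the T-type Cacna1g at 74.4 ± 1.64. Cacna1a, of P/Q-type channels, Cacna1c, of L-type channels, and Cacna1h averaged 64.9, 63.99 and 63.7 and crossed one another. Cacna1s and Cacna1e averaged 44.00 and 38.6, and Cacna1f was detected in no sample. Of the accessory subunits, Cacnb3 averaged 97.3 ± 0.264, Cacna2d1, a target of gabapentin, 92.5 ± 0.741, Cacnb1 92.2 ± 0.197, Cacnb4 80.9 ± 3.57 and Cacna2d3 74.04 ± 3.24, with Cacna2d2 and Cacnb2 at 37.2 and 35.9, and Cacna2d4 detected in none.

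Potassium channel families each had members from bright to dim. Kcna1 and Kcna6 averaged 81.9 ± 1.8 and 80.6 ± 2.7 and crossed in 1 sample, and Kcna4, Kcna2, Kcna5 and Kcna3 averaged 64.2, 56.8, 36.1 and 35.4. Kcnd2, of A-type current, stood at 87.4, 85.9, 87.1 and 87.3, close together in the 4 samples. Kcnc2, Kcnb2, Kcnd1, Kcnc1 and Kcnd3 averaged 73.6, 67.9, 63.9, 60.8 and 47.02. Of the channels of the M-current, Kcnq3 averaged 92.3 ± 0.562 and Kcnq5 48.1 ± 1.82, with Kcnq1, the heart form, at 56.1 ± 1.6. The pacemaker channel genes Hcn3, Hcn4 and Hcn2 averaged 57.3, 57.1 and 52.2. Of the sodium pump genes, Atp1a4 of sperm was detected in no sample. The beta subunits Atp1b1, Atp1b2 and Atp1b3 averaged 99.2 ± 0.29, 97.1 ± 0.0599 and 87.4 ± 1.25 in that order throughout.

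**Figure D4:**
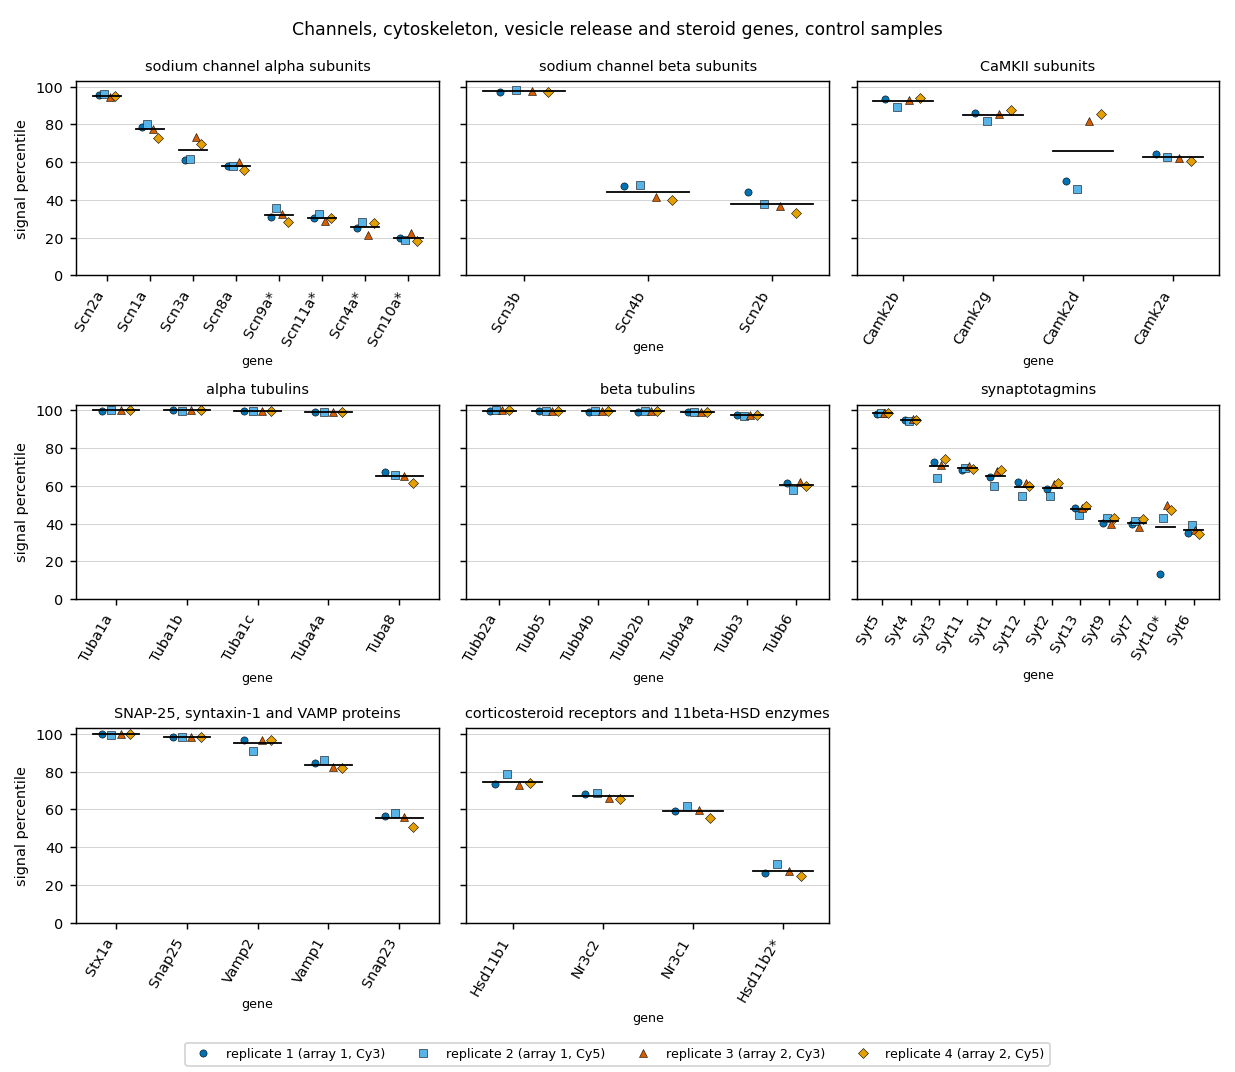
Signal percentile (y, 0 to 100) of members of 8 families of channels, kinases, tubulins, vesicle proteins and steroid genes (x). Each symbol is 1 control sample and each bar the mean of the 4, and an asterisk marks a gene not well above background in every sample with a value. The genes drawn are those the text reports, and of them Scn2a leads the sodium channel alpha subunits at 95.1, and Camk2d is split between the 2 arrays.

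Calm2 and Calm3 averaged 99.82 ± 0.114 and 99.1 ± 0.215 in that order in all 4 samples. Of the CaMKII subunits, Camk2b, the form known to come first in development, stood at 93.2, 89.3, 93.1 and 93.8 and Camk2a at 64.2, 62.5, 62.4 and 60.7. Camk2g averaged 85.1 ± 2.5 between them. The adaptor isoforms Ywhae, Ywhab, Ywhah, Ywhag, Ywhaz and Ywhaq averaged 99.2, 98.9, 97.7, 97.6, 96.3 and 94.5, and epithelial Sfn 32.2.

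The tubulin lists had medians of 99.63 ± 0.17 for alpha and 99.51 ± 0.187 for beta tubulins, and the actin list one of 73.7 ± 0.966. Tuba1a and Tuba1b averaged 99.95 ± 0.0933 and 99.92 ± 0.0653, Tuba1c and Tuba4a 99.63 ± 0.17 and 98.98 ± 0.132, and Tuba8 64.98 ± 2.6. Tubb2a, Tubb5, Tubb4b, Tubb2b and Tubb4a lay between 99.2 and 99.85, the neuronal Tubb3 at 97.4 ± 0.387 and Tubb6 at 60.4 ± 1.92. Cytoplasmic actins Actg1 and Actb averaged 99.92 ± 0.0838 and 99.2 ± 0.338, and the muscle actins Actc1, Acta2, Acta1 and Actg2 80.3, 67.1, 50.1 and 46.9. Nefm, Ina and Nefl, the filaments of young axons, averaged 93.7 ± 0.717, 91.8 ± 1.27 and 87.8 ± 3.16, and Nefh, the late heavy chain, 69.2 ± 3.0, above Prph at 58.7. Tau, Mapt, stood at 99.4, 99.1, 99.3 and 99.2, ahead of Map4, Map2, Map6, Map1a and Map1b at 93.4, 84.4, 83.2, 79.8 and 72.9.

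At the synapse, Stx1a, syntaxin-1A, was the brightest release gene at 99.85, 99.66, 99.69 and 99.70. Snap25 and Vamp2 averaged 98.2 ± 0.0885 and 95.3 ± 2.88, Vamp1 83.7 ± 2.05 and Snap23 55.3 ± 3.06. The brightest synaptotagmin was Syt5 at 98.2, 98.4, 98.5 and 98.5, followed by Syt4 at 94.8 ± 0.413. Syt1, the sensor of fast release, stood at 64.6, 59.99, 68.03 and 68.5, below Syt3 and Syt11 at 70.4 and 69.2. With patch spots left out, Syt1 kept only replicates 3 and 4, and Syt1 and Syt11 averaged 68.9 and 69.3. Syt12, Syt2, Syt13, Syt9, Syt7, Syt10 and Syt6 lay between 36.4 and 59.5. Syn2 and Syn1 averaged 87.4 ± 0.654 and 85.6 ± 3.1, crossing in 1 sample, and Syn3 34.3 ± 2.45. Complexin Cplx1 averaged 98.9 ± 0.437, Cplx2 93.9 ± 0.367, Cplx3 62.5 ± 3.54 and retinal Cplx4 13.9 ± 4.82, detected in no sample. Sv2a, the target of levetiracetam, averaged 92.4 ± 1.58, Sv2b and Sv2c 60.4 and 43.1, and Rab3a, Rab3b, Rab3d and Rab3c 90.5, 82.99, 72.7 and 65.2. In the postsynaptic density, Shank3 stood at 93.8, 94.9, 94.05 and 94.7 by 1 probe, and the other probe averaged 48.3. Homer1, Homer2, Shank1, Shank2 and Homer3 averaged 87.96, 67.9, 67.3, 35.1 and 33.2. Dlg2, PSD-93, ranged widely, at 53.2, 77.6, 82.4 and 81.8, low in replicate 1, and was brighter than Dlg3 at 73.4 ± 1.23 in 3 of 4 samples. Dlg4, PSD-95, stood at 61.7, 59.3, 61.2 and 66.6 and Dlg1 at 50.2 ± 0.387.

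Of the metabolic isoforms, Eno1 averaged 99.84 ± 0.0723, neuronal Eno2 94.3 ± 1.52 and muscle Eno3 61.3 ± 1.73. Aldoc, the astrocyte aldolase, averaged 99.3 ± 0.444 and Aldoa 96.5 ± 1.27. Ldha and Ldhb averaged 99.2 ± 0.216 and 98.5 ± 0.229, and testis Ldhc was detected in none. Hk1, the brain hexokinase, stood at 96.4, 97.1, 97.2 and 97.5, with Hk2 at 32.6 and Hk3 detected in none. Brain creatine kinase Ckb averaged 98.6 ± 0.211 and Ckmt1 90.5 ± 1.44, and the muscle forms Ckm and Ckmt2 were detected in no sample. The elongation factors Eef1a1 and Eef1a2 averaged 98.8 ± 0.132 and 98.8 ± 0.117 and crossed in 1 sample. Hsp90ab1, Hsp90aa1, Trap1 and Hsp90b1 averaged 99.2, 97.3, 91.99 and 88.5. Of the gap junction genes, astrocytic Gja1 averaged 88.9 ± 0.768, Gjb2 79.6 ± 3.25, Gjb6 77.7 ± 2.9, Gja4 68.3 ± 0.787, and neuronal Gjd2 51.3 ± 1.02, with Gja5, Gjb1 and Gjc3 at 46.9, 40.2 and 35.2.

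The corticosteroid genes, receptors and enzymes that bind, activate or inactivate glucocorticoids, kept 1 order in all 4 samples. Hsd11b1, the enzyme that regenerates active glucocorticoid, stood at 73.4, 78.7, 72.9 and 73.9. The mineralocorticoid receptor Nr3c2 stood at 68.2, 68.6, 66.2 and 65.4 and the glucocorticoid receptor Nr3c1 at 58.9, 61.9, 59.9 and 55.7, in that order in all 4 samples. Hsd11b2, the inactivating enzyme, was well above background in none, at 27.5 ± 2.59. The second probes of both receptors were dim, at 26.4 and 29.3.

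Of the receptors for other transmitters, muscarinic Chrm3 and Chrm4 averaged 89.6 ± 1.09 and 85.01 ± 2.36, Chrm1 44.7 ± 5.8 and Chrm2 39.1 ± 1.55, and Chrm5 was detected in none. Nicotinic subunits had no clear leader, with Chrna5, Chrnb4 and Chrna4 at 68.5 ± 3.28, 67.7 ± 2.49 and 66.3 ± 0.958, which crossed one another. Chrna1, Chrnb1, Chrna3, Chrnb2 and Chrna7 averaged 55.1, 41.9, 41.9, 38.8 and 35.98, and Chrna2 and Chrnb3 were detected in none. Dopamine receptors ran Drd2 at 65.98 ± 3.49, Drd5 at 50.5 ± 1.42, Drd4 at 36.7 ± 3.86, Drd1 and then Drd3, detected in none. Adra1d, Adra1b and Adra2b averaged 81.7 ± 1.6, 78.8 ± 1.67 and 78.5 ± 2.09, and Adra2c, Adrb1, Adra2a and Adra1a lay between 43.5 and 47.5, with Adrb3 detected in none. Of the serotonin receptors, Htr2c averaged 67.6 ± 4.8 by 1 probe and 14.4 by the other, Htr3a 61.9 ± 3.91, Htr7 49.8 ± 1.97, Htr2a 46.6 ± 2.7, Htr1a 39.1 ± 3.38 and Htr6 37.05 ± 2.82. Htr5a, Htr5b and Htr1b were above background in 1 or 2 samples, and Htr1d, Htr4, Htr2b, Htr1f and Htr3b in none. The cannabinoid receptor Cnr1 averaged 83.5 ± 2.23, Oprl1 69.4 ± 1.42, Oprd1 52.04 ± 1.2, Cnr2 36.98 ± 1.26 and Oprm1 31.8 ± 3.04, and Oprk1 was detected in no sample.

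Some members had values that followed the array, and they have no settled place in the order. Patches were mapped where over 20% of neighbouring spots departed from the other arrays, and such patches held 2.15% and 2.16% of the spots of the 2 control arrays. Since departure defined them, a split between arrays is no finding about these genes. Of 573 list members, 44 had a spot in a patch, and their median range over the samples was 7.46 points against 4.12 points for the rest. The nicotinic subunit Chrna10 stood at 7.49, 1.85, 78.4 and 82.9, and the microglial gene Siglech at 6.97, 6.96, 75.2 and 74.2. Chrna6 stood at 19.8, 20.6, 78.96 and 82.6, the endothelial receptor Tek at 29.2, 25.2, 75.9 and 80.5 and Hoxc10 at 4.56, 0.301, 77.98 and 82.6. The L-type channel gene Cacna1d, Camk2d and the betaine and GABA transporter Slc6a12 stood at 34.7, 29.8, 70.99 and 72.8, at 50.1, 45.96, 81.8 and 85.6 and at 46.98, 50.2, 81.5 and 84.3. In these 8 genes both samples of array 2 were higher than both of array 1, with no overlap. Smaller splits were seen in Chrna9, Cldn11, Gjc1 and, with array 1 higher, Gpr17, and in Kcnc4, Hoxb6 and Myrf with 1 sample missing. With patch spots left out, Syt1, Eno2 and Gabra4, among others, kept only replicates 3 and 4 and averaged 68.9, 95.5 and 69.9. Nefl and Tuba1c kept only replicates 1 and 2 and averaged 89.9 and 99.7. Among all named genes detected in the 4 samples, the 8 with the widest range were Bpifb9a, Epgn, Abcg3l1, Ssh2, Adam23, Armc12, Itpk1 and Psmb11. All 8 had spots in a patch, and their median range was 47.6 points. With such genes left out, an alternative chosen after the data were seen, the widest were Prss39, Dlg2, Exoc6, Cd59b, Caskin1, Kif21b, Baiap2l1 and Clec4a. Prss39 stood at 35.3, 34.2, 68.3 and 66.7, high on array 2 and low on array 1.

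**Figure D5:**
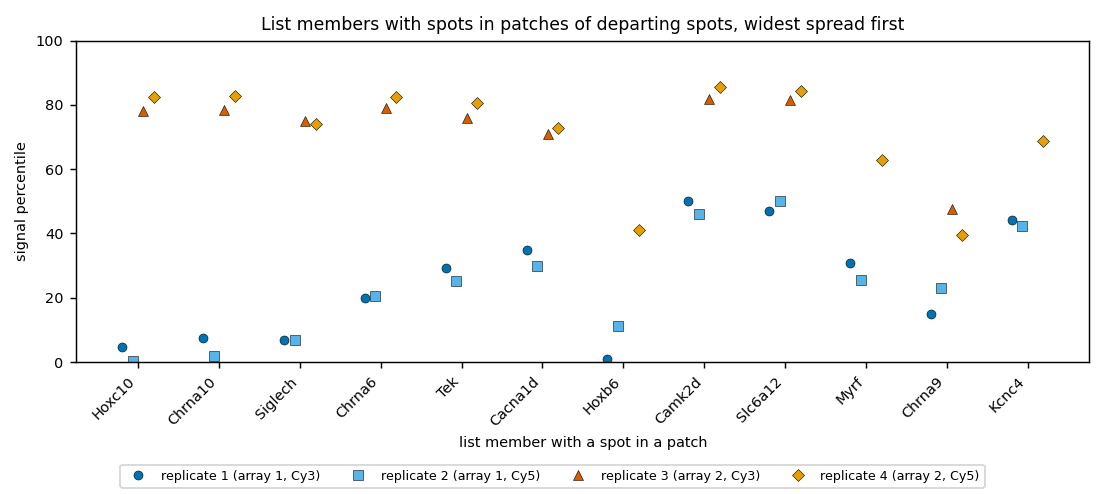
Signal percentile (y, 0 to 100) in each control sample of the 12 list members (x) with a spot in a patch of departing spots and the widest range. Circles and squares are the animals of array 1, triangles and diamonds those of array 2. In all 12 genes the samples of array 2 with a value lie above those of array 1.

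The control order was close to that of the treated animals on the other slide. Of the 100 brightest genes of the control group, 87 were among the 100 brightest of the betamethasone group and 82 among those of the betamethasone with ketamine group. Mean percentiles correlated across genes with Spearman rho of 0.982 and 0.981, values across genes that share probes and are not replicates. The slope that the scanner software fitted to the spike-in RNA was 0.492 and 0.542 on the control arrays and 0.873 to 0.881 on the others, and its part in these values was not tested.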

How the data were processed

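Per the labels, RNA was extracted on silica columns, amplified, labelled with a low-input 2-colour kit and hybridised. Agilent Feature Extraction 10.7.3.1 is named in the submitters' processing notes. The file headers of the control arrays give 11.5.1.1 and those of the other arrays 11.0.1.1. Per the file headers, the deposited intensity values are background-subtracted spot signals on the rn4 design, and the deposited flags say which spots are well above background, outliers or controls. The authors' deposited value table holds a ratio, which matched the median signal less local background over the column median. Here control and outlier spots were left out, spots of a probe averaged, and each gene given its brightest probe by mean log2 signal over the control samples. Genes were ranked within each sample, with no normalization between samples and no test. Symbols were updated through RefSeq's gene table of assembly GRCr8. Python 3.11.15 and pandas 2.3.3 were used, and the ranking was tested on simulated data. Genes named are the 20 brightest, the list members, the 8 with the widest range and the 5 with probes farthest apart. Some of these genes are not reported here, while list counts and medians include them. Members and lists were chosen with earlier results of these data known. The SD covers 4 animals on 2 arrays, and the number of arrays limits the precision. Alternatives tried were other signals, probe choices, ranking populations, single dyes, single arrays and each sample left out.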

Additional observations from a re-analysis of the deposited data

Results flagged for a closer look

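In 8 of 111 values 1 of the 4 control samples lay far from the other 3, with a gap to its nearest neighbour above Dixon's critical share of the whole range. Chance flags about 1 in 20 such groups. Dlg2, PSD-93, averaged 73.8 and stood at 53.2 in replicate 1 against 77.6 to 82.4 in the others. Camk2b averaged 92.4 and was lowest in replicate 2, at 89.3. Cacna1i averaged 94.0 and was highest in replicate 4, at 95.6. Hsd11b1 averaged 74.7 and was highest in replicate 2, at 78.7. Tuba1a averaged 99.95 with replicate 1 lowest at 99.81, and Rplp0 averaged 99.91 with replicate 4 lowest at 99.84. The median of the olfactory receptor genes averaged 12.3 and was highest in replicate 2, at 13.3. The count of genes well above background was 18538 in replicate 3, against 17486 to 17549 in the others, with 16212 genes shared by all 4. What set these samples apart was not tested.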

How the results depend on the processing

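The count of genes well above background in all 4 samples stayed within 1.5 times of 16212 under every alternative run. With single dyes, single arrays or a sample left out it could hardly do otherwise. With the same probes, such a count lies between 16212 and 18538, the largest count of a single sample. Of 56 families, the same member was brightest in 42 under all alternatives. The brightest member was kept in 50 families with the processed signal, the median over probes or array 1 alone, in 53 with Cy3 alone, in 55 with Cy5 or array 2 alone, and in 54 to 56 with each sample left out. Dlg2 lost first place under 6 alternatives, Chrna5 under 4 and Tuba1a under 3. The microglial median of 77.9 became 79.8 with the processed signal, 76.0 in the deposited value table, 80.1 with the median over probes, 79.3 ranked over all probes, 69.7 ranked over detected genes and 79.0 without patches. The myelinating median of 58.8 became 54.8 in the value table and 38.3 over detected genes. The pan-neuronal median of 94.8 became 91.9 over detected genes and 96.3 without patches, and the astrocyte median of 90.4 became 87.2 over detected genes. Ranking over detected genes removes the dim genes from the ranked population, and the cause of the other moves was not tested. In all, 56 of 368 list values and 120 of 896 gene values moved by at least 1 SD. No list value did so with single dyes, single arrays or a sample left out. With the same probes, list values from only part of the 4 samples cannot move that far, so these runs do not measure stability. No paired analysis was possible because these results come from no test.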

Other observations

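Among the brightest genes were some that no list held, picked after their values were seen. Stfa2, a stefin gene, averaged percentile 99.54, at 98.6 in replicate 1 and at 99.56, 99.98 and 99.98 in the others. Its probe is 1 of 3 on the array that hold a run of 11 letters from the rat ID repeat, on either strand, and the median percentile of these 3 probes was 99.3. What part the repeat has in the signal was not tested.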
